A study of Mus musculus with 2 samples.

Results

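The 10 genes described here belong to the NF-kB system and were chosen by name from the 31053 genes of the deposited matrix. They are the Rel subunit genes Nfkb1, Nfkb2 and Relb, the inhibitor and feedback genes Nfkbia, Nfkbiz, Tnfaip3 and Birc3, the cytokine gene Tnf, and the adhesion molecule genes Icam1 and Vcam1. All 10 were found in the matrix, and they are followed across tumour, macrophage, T and dendritic barcodes of 1 pool of mouse tumour cells. The study concerned inhibitors of ACSS2 in a mouse model of breast cancer, and ACSS2 is the enzyme that makes acetyl-CoA from acetate. Tumour cells of 3 samples given ACSS2i and 3 given vehicle, of a strain labelled NGS mouse, were mixed and run on 1 lane, so expression was read in 1 library. The design text names Bmal1 status, which no label of the pool gives. The matrix counts antibody tags for 6 samples (D0, D1, D4, U2, U3 and U4), but no source used here ties a tag to its arm, so no ACSS2i sample could be set against a vehicle sample. The tags mix both arms, so they were not treated as replicates of 1 group, no test over them was run, and no p-value is given. The labels do not say whether the 6 samples came from separate mice.

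NF-kB dimers are held in the cytoplasm by inhibitor proteins until receptors for cytokines or microbial products activate the kinases that mark these inhibitors for destruction. The freed dimers switch on inflammatory genes together with genes that shut the pathway down again, such as the inhibitor gene Nfkbia and the ubiquitin-editing enzyme gene Tnfaip3. Another, slower arm processes the Nfkb2 product and works through its partner Relb, and it is known from lymphoid tissue and from mature dendritic cells.

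Promoter stretches are shown for Nfkbia, Tnfaip3 and Nfkb2, the members found to hold the motif described next, whatever their levels. In the 250 bases before each RefSeq start (GRCm38.p6), the NF-kB consensus motif, 10 letters long, was looked for on both strands. Of the 10 genes, 6 are in the promoter table (Nfkb2, Nfkbia, Tnfaip3, Birc3, Tnf and Icam1). A match was held by 3 of them, against 3.899% of all 32851 windows and 4.455% of the 27025 genes of the table. Capitals mark the match, and in Nfkb2 they cover overlapping matches on both strands. The stretches are chr12:55492648-55492897 for Nfkbia and chr10:19015411-19015440 for Tnfaip3, both on the minus strand, and chr19:46304688-46304717 for Nfkb2 on the plus strand. Exons of GENCODE M21 cover 0 bases of the Nfkbia window, 110 of the 250 bases of the Tnfaip3 window and all 250 of the Nfkb2 window.
Nfkbia: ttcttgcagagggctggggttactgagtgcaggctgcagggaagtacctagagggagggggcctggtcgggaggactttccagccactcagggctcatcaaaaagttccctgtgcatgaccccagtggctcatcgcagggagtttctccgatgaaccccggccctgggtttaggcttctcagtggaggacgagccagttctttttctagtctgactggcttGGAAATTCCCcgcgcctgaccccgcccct
Tnfaip3: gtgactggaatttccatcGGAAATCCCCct
Nfkb2: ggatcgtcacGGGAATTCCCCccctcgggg
The match shown began 29 bases before the start in Nfkbia, 12 bases before it in Tnfaip3 and 39 bases before it in Nfkb2. The Tnfaip3 window held another match 125 bases before the start, and the Nfkb2 window another 11 bases before it. Nfkb2 windows at other starts held matches 236 and 225 bases before theirs. None was found in the windows of Birc3, Tnf and Icam1, which says nothing of the factor, and a match is a description of sequence, not a site.

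In GENCODE M21 (GRCm38) the Rel subunit genes are Nfkb1 (chr3:135584655-135691547), Nfkb2 (chr19:46304320-46312385) and Relb (chr7:19606217-19629438). The inhibitor and feedback genes are Nfkbia (chr12:55489410-55492647), Nfkbiz (chr16:55811375-55838899), Tnfaip3 (chr10:19000910-19015657) and Birc3 (chr9:7848699-7873186). Tnf lies at chr17:35199381-35202007, Icam1 at chr9:21015985-21028817 and Vcam1 at chr3:116109949-116129688. The library kit reads transcripts near their 3' ends, so levels are compared between classes for 1 gene and never between genes.

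The matrix holds 9747 barcodes and 187339115 UMIs (unique molecular identifiers, 1 for each captured transcript), and 7919 barcodes were left after the filters and the removal of 865 tag multiplets. Tumour barcodes (at least 3 Krt8 and Krt18 UMIs and no Ptprc, the pan-leukocyte gene) numbered 5216, macrophage barcodes (at least 3 UMIs of the complement genes C1qa, C1qb and C1qc) 355 and T barcodes (at least 2 UMIs of the Cd3 chains) 701. Their median depths differed, at 4119 UMIs in macrophage, 1609 in T and 25137.5 in tumour barcodes. All levels are therefore CPM, the UMIs of a gene per 1000000 UMIs of the class, with exact Poisson 95% intervals that cover counting error only. Tumour barcodes had 760.1 CPM of Sox9, while the epithelial genes Krt7, Krt19 and Epcam were all below 0.1 CPM in them. Sox9 stood at 5.31% of the tumour level in T barcodes and at 1.91% of it in macrophage barcodes, which gauges tumour RNA among them.

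The dendritic label does not hold for most of the barcodes its rule takes. Fscn1, an actin-bundling gene of mature dendritic cells, stood at 95.4 CPM in tumour barcodes too, and 90.2% of the 3784 barcodes that met the dendritic rule as written also met the tumour rule. After tumour barcodes were taken out, 234 dendritic-rule barcodes remained, of which 185 had no Ptprc UMI, and Sox9 stood at 82.9% of its tumour level in the 234. The 37 that held Ptprc and no B cell markers, chosen after their values were seen, are called Ptprc+ dendritic-rule barcodes here. They had 1187 CPM of Ccr7, a gene of the rule, and 413 CPM of Ccl22, both known from migratory dendritic cells. Macrophage barcodes had 0.632 and 3.16 CPM of these genes. Other dendritic markers did not set them apart from macrophage barcodes. The antigen presentation genes Cd74 (5279 against 6309 CPM) and H2-Ab1 (2568 against 2549 CPM) and Itgax (51.6 against 63.8 CPM) were near the macrophage level. Zbtb46 rested on 6 UMIs, against 0 in macrophage barcodes. Their median depth was 2883 UMIs, and their Sox9 level was 27.9% of that in tumour barcodes. The stromal gene Dcn stood at 2723 CPM in them, against 2579 CPM in tumour barcodes, with 309 and 149 of its 475 UMIs in a pair of barcodes. Relb and Vcam1 are therefore also given without the barcodes that held Dcn.

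Among the Rel subunit genes, Relb marked the Ptprc+ dendritic-rule barcodes. Relb, the partner of the processed Nfkb2 product, stood at 247 CPM there (178 to 332, 43 UMIs), at 56.0 CPM in T barcodes, at 19.0 CPM in macrophage barcodes and at 31.7 CPM in tumour barcodes. That was 7.77-fold above tumour (5.62 to 10.5), 13.01-fold above macrophage (7.97 to 21.5) and 4.40-fold above T barcodes (2.96 to 6.46). In the 28 of the 37 barcodes without any Krt8, Krt18 or Sox9 UMI, Relb stood at 293 CPM, and in the 28 without a Dcn UMI at 374 CPM. The 43 UMIs came from 19 of the 37 barcodes, at most 7 from 1 of them. No tag held 20 of these barcodes, so the contrast could not be read within tags. With 1 tag left out at a time, the Relb ratio was 6.80 to 8.74 against tumour and 10.4 to 16.1 against macrophage barcodes. All 234 dendritic-rule barcodes together had 55.2 CPM of Relb, 1.74-fold the tumour level (1.48 to 2.03).

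T barcodes held more Relb than macrophage barcodes, in 4 of 4 tags. Per tag, Relb in T barcodes ran from 37.2 CPM (D4) through a median of 46.9 to 75.0 CPM (D1). In macrophage barcodes it was 26.8 CPM in U2, 25.8 in U4, 16.7 in D1 and 10.7 in D0. The tag values of the classes did not overlap, but their intervals did. T barcodes of D4 (4.50 to 134 CPM) and macrophage barcodes of U4 (3.12 to 93.1) and D0 (1.30 to 38.8) held 2 Relb UMIs each. The ratio of T to macrophage was 2.95 (1.92 to 4.66). In tumour barcodes Relb varied least of the members across tags, from 29.0 CPM (U4) through a median of 33.0 to 35.2 CPM (D4).

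Nfkb1, which encodes the precursor of a subunit of the classical dimer, stood at 247 CPM in Ptprc+ dendritic-rule barcodes, 206 in T, 129 in macrophage and 145 in tumour barcodes. None of these leukocyte classes differed from tumour by 2-fold in this gene, and the ratio of T to tumour was 1.42 (1.26 to 1.60). Its spread over tags was wide, from 46.5 CPM (U4) through a median of 197 to 372 CPM (D4) in T barcodes and from 64.6 CPM (U3) through a median of 127 to 218 CPM (D4) in tumour barcodes. D4 was the highest tag in both classes. The Ptprc+ dendritic-rule ratio to tumour was 2.22 without tag U3, which made it a call.

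Nfkb2, whose product is the precursor of the slower arm, had 40.1 CPM in Ptprc+ dendritic-rule barcodes (16.1 to 82.7, 7 UMIs), 44.6 in T, 22.7 in macrophage and 24.5 in tumour barcodes. The T to tumour ratio of 1.82 (1.40 to 2.34) stayed under 2, and it was 2.27 without tag U3. T barcodes were above tumour barcodes in 4 of 6 tags.

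**Figure D1:**
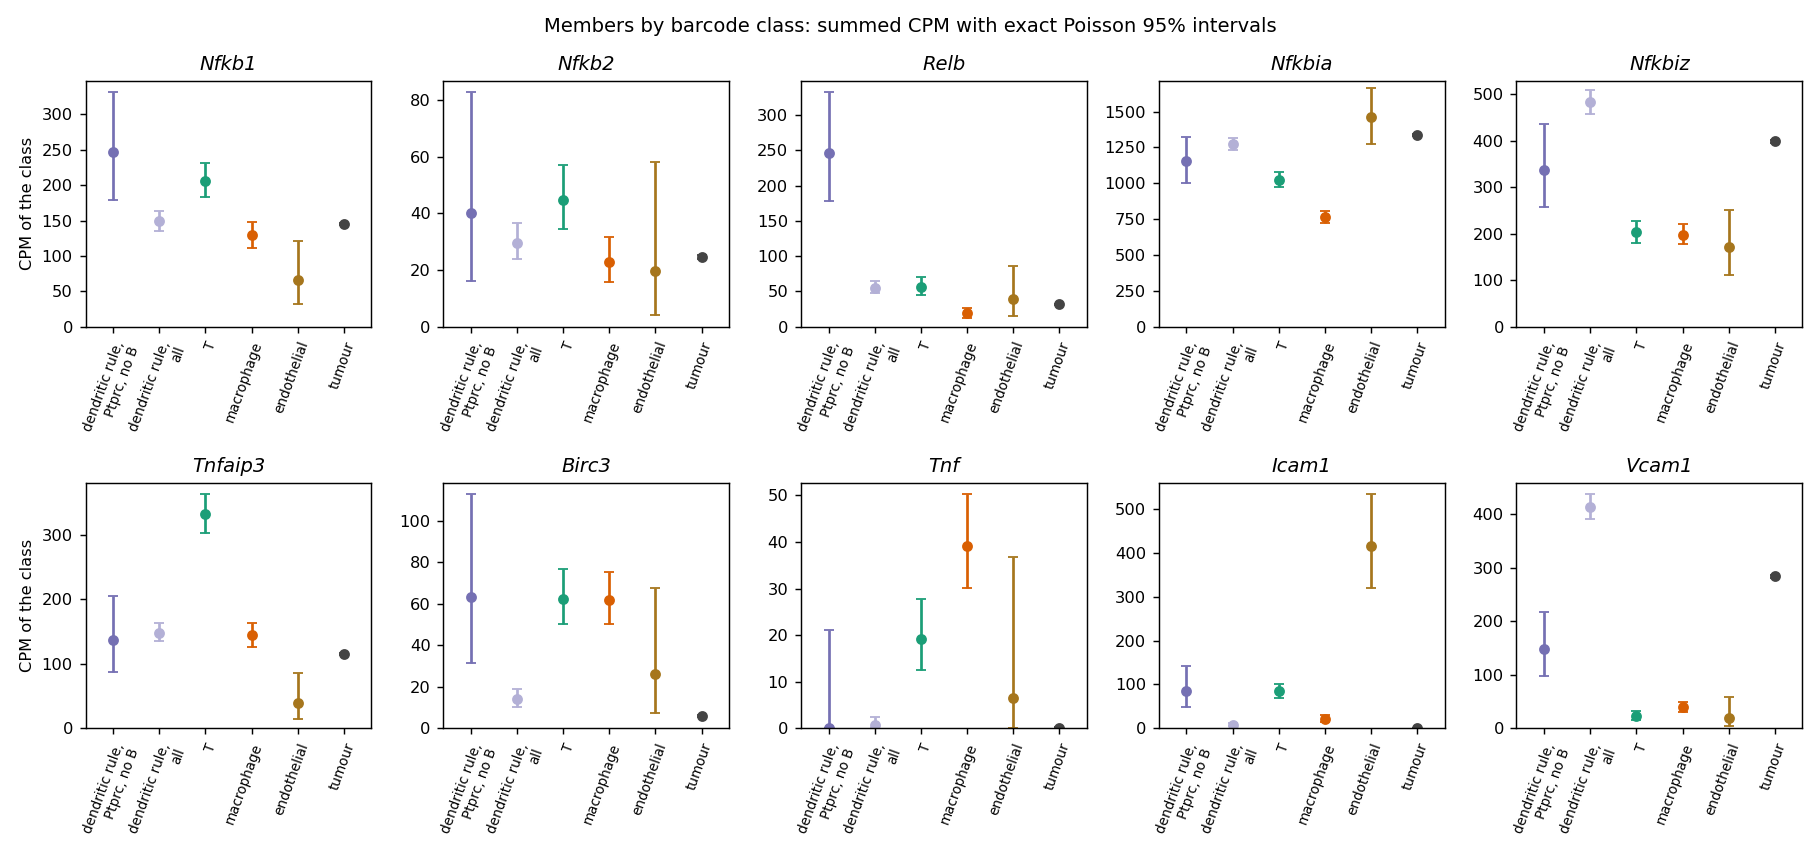
Level of each gene in CPM (vertical axes, each starting at 0) by barcode class, with exact Poisson 95% intervals. Relb is highest in Ptprc+ dendritic-rule barcodes (247 CPM), Tnfaip3 in T barcodes (332 CPM), Tnf in macrophage barcodes (39.2 CPM) and Icam1 in endothelial barcodes (416 CPM).

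The feedback genes divided by class. Of these 4 classes, Nfkbiz was highest in tumour barcodes, though not apart from Ptprc+ dendritic-rule barcodes, and Tnfaip3 was highest in T barcodes. Birc3 was higher in every leukocyte class than in tumour barcodes, and Nfkbia passed the 2-fold threshold in none. Nfkbia encodes the inhibitor that is made anew after each activation and pulls the dimers off DNA. It stood at 1152 CPM in Ptprc+ dendritic-rule barcodes, 1026 in T, 766 in macrophage and 1334 in tumour barcodes. Across tags it ran from 554 CPM (U3) through a median of 1133 to 1673 CPM (D4) in T barcodes. Macrophage barcodes had 1108 CPM in U4, 934 in D0, 771 in U2 and 709 in D1. Tumour barcodes ran from 595 CPM (U4) through a median of 1193 to 1677 CPM (U2), so all 3 classes overlapped. The ratio to tumour was 0.769 in T (0.730 to 0.810) and 0.574 in macrophage barcodes (0.542 to 0.607), neither past 2-fold. In U4 both classes were above tumour, and in D4 so were T barcodes.

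Nfkbiz encodes an atypical nuclear inhibitor family member that helps to induce secondary inflammatory genes. It had 338 CPM in Ptprc+ dendritic-rule barcodes (257 to 436), 203 in T, 198 in macrophage and 399 in tumour barcodes. All 234 dendritic-rule barcodes together had 483 CPM of Nfkbiz (459 to 509). T barcodes were below tumour barcodes in 6 of 6 tags, and macrophage barcodes in 4 of 4. T barcodes ran from 69.8 CPM (U4) through a median of 208 to 335 CPM (D4). Macrophage barcodes had 229 CPM in D1, 188 in D0, 172 in U2 and 103 in U4, and tumour barcodes ran from 182 CPM (U4) through a median of 372 to 506 CPM (U2). The ratio of macrophage to tumour, 0.497 (0.443 to 0.555), lay at the 2-fold threshold and was 0.602 without tag U2 and 0.5001 without D0, which ended the call each time. The T to tumour ratio was 0.510 (0.452 to 0.572), and it was 0.481 without D1 and 0.495 without D4.

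Tnfaip3, the ubiquitin-editing enzyme that ends signalling from receptors, stood at 138 CPM in Ptprc+ dendritic-rule barcodes, 332 in T, 144 in macrophage and 115 in tumour barcodes. T barcodes ran from 139 CPM (U3) through a median of 357 to 488 CPM (U2). Macrophage barcodes had 165 CPM in U2, 153 in D1, 107 in D0 and 90.2 in U4, and tumour barcodes ran from 34.9 CPM (U4) through a median of 113 to 148 CPM (U2). T barcodes were above both other classes in every tag that held them. Tnfaip3 was 2.88-fold higher in T than in tumour barcodes (2.62 to 3.15) and 2.30-fold higher in T than in macrophage barcodes (1.96 to 2.71), and 1.91-fold without tag U2, which ended the second call. It was lower in Ptprc+ dendritic-rule than in T barcodes, at a ratio of 0.415 (0.263 to 0.62), a call that was lost without tag U2 (0.648).

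Birc3, a ubiquitin ligase of the tumour necrosis factor receptor complex, was present in each leukocyte class and low in tumour barcodes. It had 63.1 CPM in Ptprc+ dendritic-rule barcodes (11 UMIs), 62.4 in T, 61.9 in macrophage and 5.82 in tumour barcodes. Over tags, T barcodes ran from 23.3 CPM (U4) through a median of 53.9 to 105.0 CPM (D1). Macrophage barcodes had 67.0 CPM in U2, 64.4 in U4, 60.3 in D1 and 53.7 in D0, and tumour barcodes ran from 1.90 CPM (U3) through a median of 5.24 to 8.23 CPM (U2). No T or macrophage tag value reached down to a tumour tag, though T barcodes of U4 held only 3 Birc3 UMIs (4.80 to 68.0 CPM). Ratios to tumour were 10.8 in Ptprc+ dendritic-rule (5.39 to 19.5), 10.7 in T (8.497 to 13.4) and 10.6 in macrophage barcodes (8.53 to 13.1).

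Tnf, the inflammatory cytokine that is both a product and an activator of the pathway, was found mainly in macrophage and T barcodes. It stood at 19.1 CPM in T (12.6 to 27.8, 27 UMIs), 39.2 in macrophage (30.03 to 50.2, 62 UMIs) and 0.136 CPM in tumour barcodes (19 UMIs in 5216 barcodes). The 37 Ptprc+ dendritic-rule barcodes held 0 Tnf UMIs. Taken as 3 counts, this is 17.2 CPM, or 0.439 times the level of macrophage barcodes. The exact interval reaches further, to 21.1 CPM and to a ratio of 0.556, so a difference under 2-fold is not excluded. Macrophage barcodes had 44.9 CPM in D1, 35.8 in U2, 32.2 in D0 and 12.9 in U4. T barcodes ran from 0 in U3 through a median of 24.9 to 31.0 CPM in U4, and no tumour tag exceeded 0.261 CPM. The ratio to tumour was 141 in T (75.3 to 268, higher in 5 of 6 tags) and 288 in macrophage barcodes (170 to 510, higher in 4 of 4 tags). T barcodes had 0.488 times the macrophage level (0.299 to 0.779) with all tags pooled. Within the 4 tags that hold both classes the ratio was 0.585 to 2.41 with a median of 0.742, so no tag was 2-fold lower and T was higher in U4. The 210 T barcodes of U3, a tag with only 17 macrophage barcodes, had 0 Tnf UMIs, and without U3 the pooled ratio was 0.679 and without D1 0.520, neither of them called.

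The adhesion molecule genes lay on opposite sides. Icam1, a ligand of leukocyte integrins on endothelium and antigen-presenting cells, was high in endothelial, T and Ptprc+ dendritic-rule barcodes and low in tumour barcodes. It stood at 86.0 CPM in Ptprc+ dendritic-rule (48.1 to 142, 15 UMIs), 84.3 in T, 22.1 in macrophage and 1.43 CPM in tumour barcodes (200 UMIs). The 26 endothelial barcodes (at least 2 UMIs of Pecam1, Cdh5 and Cldn5 and no Ptprc) had 416 CPM (320 to 532, counting error only), but 63 UMIs from 6 barcodes made up that level and 20 barcodes held none. T barcodes ran from 31.5 CPM (D0) through a median of 53.7 to 128 CPM (D1). Macrophage barcodes had 32.2 CPM in D0, 26.8 in U2, 21.8 in D1 and 0 in U4, and no tumour tag exceeded 2.61 CPM. Icam1 was 60.0-fold higher than in tumour barcodes in Ptprc+ dendritic-rule barcodes (33.0 to 101), 58.9-fold in T (46.5 to 74.2, 6 of 6 tags) and 15.4-fold in macrophage barcodes (10.5 to 22.2, 3 of 4 tags). T barcodes had 3.81 times the macrophage level (2.60 to 5.73), in 3 of 4 tags.

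Vcam1, the other integrin ligand, was higher in tumour than in T and macrophage barcodes. It had 149 CPM in Ptprc+ dendritic-rule barcodes, 23.4 in T, 39.2 in macrophage and 284 in tumour barcodes. Tumour barcodes ran from 208 CPM (D1) through a median of 301 to 411 CPM (U2). T barcodes ran from 0 in D4 through a median of 19.5 to 36.1 CPM in U3, and macrophage barcodes had 102 CPM in D0, 44.9 in D1, 17.9 in U2 and 0 in U4. Every tag of T and macrophage barcodes lay under every tumour tag. The ratio to tumour was 0.0822 in T (0.0566 to 0.116) and 0.138 in macrophage barcodes (0.106 to 0.177). Tumour RNA at the Sox9 level of each class would bring 15.1 CPM of Vcam1 to T and 5.43 CPM to macrophage barcodes. In barcodes without any Krt8, Krt18 or Sox9 UMI, Vcam1 stood at 8.81 CPM in T and 18.7 in macrophage barcodes, and at 0 UMIs in the 28 Ptprc+ dendritic-rule barcodes left (a limit of 30.3 CPM). All 26 Vcam1 UMIs of the Ptprc+ dendritic-rule class came from 3 of its 37 barcodes, 19 of them from 1. Outside the leukocyte classes Vcam1 stood at 328 CPM (313 to 343) in 490 barcodes with at least 3 UMIs of Pdgfra, Pdgfrb and Dcn, no Ptprc and under 3 keratin UMIs, and at 433 CPM in the 185 dendritic-rule barcodes without Ptprc, both above tumour. Sox9 stood at 107% and 86.9% of its tumour level in these sets. The 26 endothelial barcodes, where this gene is best known, had 19.8 CPM of Vcam1 (3 UMIs).

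**Figure D2:**
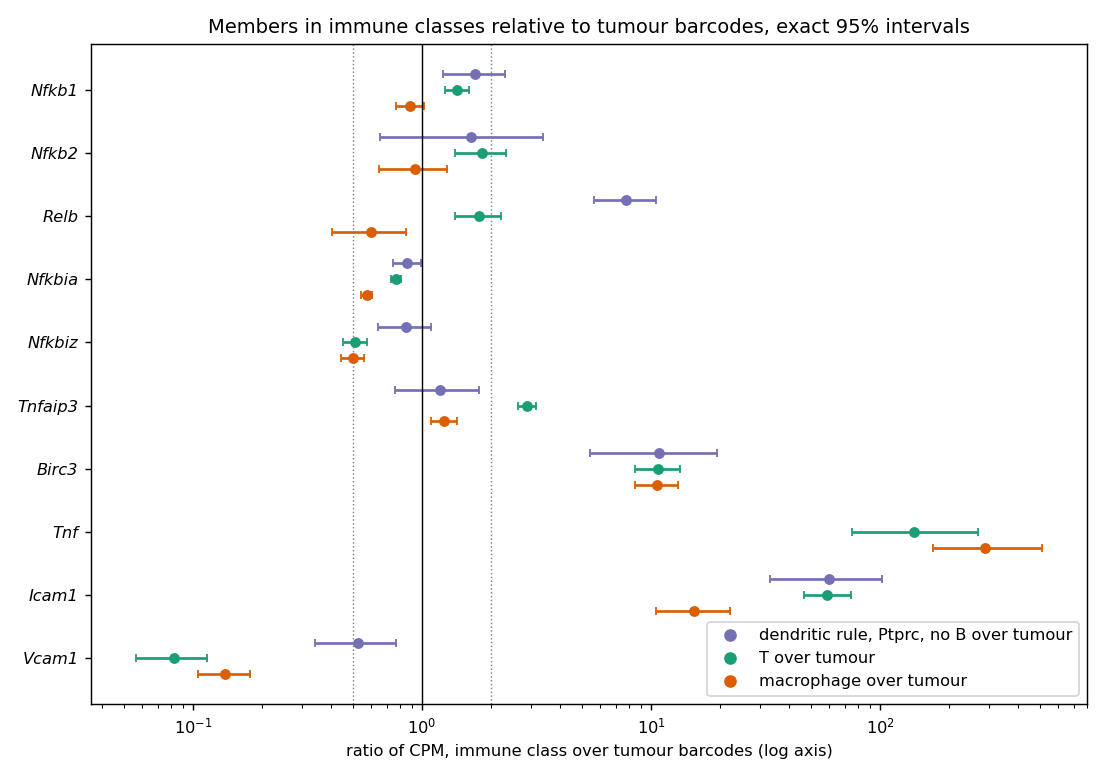
Ratio of CPM in each leukocyte class over tumour barcodes (log axis) with exact 95% intervals, the solid line at 1 and dotted lines at 2-fold either way. Birc3, Icam1 and Tnf lie right of the dotted lines and Vcam1 left of 1, with ratios to tumour from 0.0822 to 288, and Tnf has no point in Ptprc+ dendritic-rule barcodes, where it had 0 UMIs.

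A member was called higher or lower where the intervals of the 2 CPM values did not overlap and their ratio was at least 2. Against tumour, 3 of 9 tested members were higher and 0 lower in Ptprc+ dendritic-rule barcodes (Relb, Birc3 and Icam1), where 14.1% of 9262 genes were higher and 6.69% lower. T barcodes had 4 of 10 higher (Tnfaip3, Birc3, Tnf and Icam1) and 1 lower (Vcam1), where 20.7% of 9466 genes were higher and 21.0% lower. Macrophage barcodes had 3 of 10 higher (Birc3, Tnf and Icam1) and 2 lower (Nfkbiz and Vcam1), where 19.3% of 9270 genes were higher and 20.7% lower. The shares of members are thus not far from those of all genes, and what the data show lies in which members differ and by how much. Tnf (0.136 CPM) and Icam1 (1.43 CPM) were low in tumour barcodes. At the minimum of 5 CPM over the 2 classes, they could be tested only where the leukocyte class was high. This fixed the direction of their calls against tumour in advance, and Tnf went untested in Ptprc+ dendritic-rule barcodes. With the class rules applied as written, so that tag multiplets stay and a barcode may count in several classes, the members called were 3 higher and 0 lower in macrophage barcodes and 2 higher and 0 lower in T barcodes.

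The leukocyte classes were also set against each other. Ptprc+ dendritic-rule barcodes had Relb, Icam1 and Vcam1 higher and Tnf lower than macrophage barcodes (3 and 1 of 10 members, against 7.79% and 5.17% of 9207 genes). Of these, Icam1 was not called without tag U2 (3.25-fold), nor Tnf without U2, U3 or D1, and the Vcam1 ratio was 0.648 without U3. Against T barcodes they had Relb and Vcam1 higher and Tnfaip3 lower, where 8.94% of 9385 genes were higher and 5.33% lower. T barcodes had Relb, Tnfaip3 and Icam1 higher and Tnf lower than macrophage barcodes, where 13.7% of 9343 genes were called in each direction, and the Tnf call held within no tag. The Vcam1 calls in Ptprc+ dendritic-rule barcodes rest on 3 barcodes and stand beside a Sox9 level of 27.9% of tumour, which would bring 79.3 CPM. In the 28 barcodes without a Dcn UMI there was 0 Vcam1, a limit of 28.8 CPM, and against T barcodes the Vcam1 ratio was 1.42 without tag U3, not a call.

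All 234 dendritic-rule barcodes lay close to tumour barcodes. Birc3 (2.40-fold, 1.72 to 3.27) and Icam1 (6.04-fold, 3.85 to 9.12) were higher and no member was lower, of 9 tested, where 5.23% of 9125 genes were higher and 1.67% lower. The minimum of 5 CPM fixed the direction of the Icam1 call here too. Against macrophage barcodes, Relb (2.91-fold), Nfkbiz (2.44-fold) and Vcam1 (10.6-fold) were higher and Birc3 (0.226), Tnf (0.0170, 2 UMIs, interval 0.00201 to 0.0640) and Icam1 (0.391) were lower, where 18.6% of 9495 genes were higher and 15.1% lower. Without tag U2, the Nfkbiz ratio was 1.77 and that of Icam1 0.441, neither of them called.

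The shares of barcodes with a UMI put the classes in the same order as CPM for Relb and Icam1 at equal depth. With every barcode thinned to 1000 UMIs, Relb was seen in 27.8% of Ptprc+ dendritic-rule barcodes (10 of 36), 5.18% of T (34 of 656), 1.15% of macrophage (4 of 349) and 3.15% of tumour barcodes (164 of 5201). Icam1 was seen in 13.9%, 7.77%, 1.72% and 0.135% of the same classes, and Tnfaip3 in 8.33%, 25.5%, 16.05% and 10.2%. Vcam1 was seen in 1.22% of T, 3.44% of macrophage and 23.6% of tumour barcodes, and in 0 of 36 Ptprc+ dendritic-rule barcodes, which allows up to 8.33%. Before thinning, Vcam1 was seen in 8.11% of Ptprc+ dendritic-rule (3 of 37), 2.57% of T, 7.89% of macrophage and 85.5% of tumour barcodes. Free RNA was gauged by genes outside the class rules. Sox9 was seen in 3.20% of T and 0.860% of macrophage barcodes at this depth, and the Vcam1 share in T barcodes lay below that of Sox9. In tumour barcodes Sox9 was seen more often than Vcam1 too (48.5% against 23.6%), so these shares cannot tell the source of Vcam1. Whether the Vcam1 UMIs of T barcodes are free RNA was not tested. The T cell receptor gene Trbc2 was seen in 0.0577% and the myeloid adaptor gene Tyrobp in 0.154% of tumour barcodes, beside 0.135% for Icam1. Tyrobp was seen in 89.1% of macrophage barcodes and Icam1 in 1.72%, so Tyrobp is no like gauge for Icam1. Whether the Icam1 UMIs of tumour barcodes are free RNA was not tested.

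Other genes of the pathway were read from a list of 67, of which the 3 with the most UMIs in each of 7 groups are named. Against tumour, 22 of 56 tested were higher and 4 lower in Ptprc+ dendritic-rule barcodes, where 14.1% and 6.69% of all genes were called, with a median log2 ratio of 0.72 beside -0.02 over all genes. In T barcodes 23 of 58 were higher and 9 lower, beside 20.7% and 21.0% of all genes, with a median of 0.76 beside -0.03. Macrophage barcodes had 23 of 57 higher and 7 lower, beside 19.3% and 20.7%, with a median of 0.59 beside -0.10. The list is described by these counts alone.

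Among Rel subunits, Rel followed the leukocytes while Rela did not pass in any class. Rel, the subunit known for lymphoid cells, stood at 825 CPM in Ptprc+ dendritic-rule, 328 in T, 242 in macrophage and 37.2 in tumour barcodes. Ratios to tumour were 22.2 (18.7 to 26.2), 8.82 (8.01 to 9.71) and 6.51 (5.85 to 7.22) in the 3 leukocyte classes in that order. Rela, the transactivating partner of the classical dimer, had 11.5, 27.6, 40.4 and 34.1 CPM in the same 4 classes. Among kinases, Ikbkb, which phosphorylates the inhibitors, was 11.3-fold higher in Ptprc+ dendritic-rule barcodes (269 CPM), 2.98-fold in T (70.9 CPM) and 4.33-fold in macrophage barcodes (103 CPM) than in tumour barcodes (23.8 CPM). Tab2, an adaptor of the kinase that lies above it, was higher in T barcodes (2.07-fold) and was not called in the other leukocyte classes. Chuk, the sister kinase of Ikbkb, had 34.4, 29.8, 27.8 and 28.0 CPM in the same 4 classes, without a call.

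No ligand gene of the list exceeded 0.702 CPM in tumour barcodes. At the minimum of 5 CPM over the 2 classes, a ligand could be tested only where the leukocyte class was high. All those tested were called higher, 2 in Ptprc+ dendritic-rule, 5 in T and 3 in macrophage barcodes, which this minimum fixed in advance. Receptors went either way. Il1b, an activator of the pathway, had 1823 CPM in Ptprc+ dendritic-rule, 29.1 in T, 2989 in macrophage and 0.702 in tumour barcodes. Ltb, a ligand of the slower arm, had 40.1, 444, 4.42 and 0.172 CPM in the same order. Il1a stood at 106 CPM in macrophage barcodes and at 0.351 CPM in tumour barcodes. The receptor gene Tlr2 was at 327 CPM in macrophage barcodes, 9.59-fold the tumour level, and at 2.13 CPM in T barcodes. Ltbr, the receptor for Ltb, had 2.13 CPM in T barcodes and 29.9 in tumour barcodes, and Tnfrsf1a, a Tnf receptor, 22.7 and 64.3 CPM, both lower in T. Among feedback genes the deubiquitinase gene Cyld was higher in T (4.21-fold) and Ptprc+ dendritic-rule barcodes (3.12-fold), while Tax1bp1 and Otulin had no call against tumour. Of the 12 feedback genes in this group, 7 were higher in Ptprc+ dendritic-rule, 4 in T and 5 in macrophage barcodes, and 0 were lower.

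The other target genes went both ways, with 3 of 13 tested higher and 4 lower in Ptprc+ dendritic-rule, 3 of 13 higher and 6 lower in T, and 3 of 12 higher and 5 lower in macrophage than in tumour barcodes. Those higher in macrophage barcodes were the neutrophil-attracting chemokine gene Cxcl2 (55.6-fold), the survival gene Bcl2a1b, which has near-identical copies, and the caspase regulator gene Cflar (2.33-fold). The 3 with the most UMIs, a rule that favours genes of tumour barcodes because these hold most UMIs, were the chemokine genes Cxcl1 and Ccl2 and the early response gene Ier3. Cxcl1 had 1020.3 CPM in Ptprc+ dendritic-rule, 130.4 in T, 365 in macrophage and 2341 in tumour barcodes. Ccl2 had 115, 68.7, 547 and 1256 CPM and Ier3 1336, 185, 1035 and 2097 CPM in the same classes. All 3 were lower in T and macrophage than in tumour barcodes. The adaptor genes Bcl10, Irak1 and Ripk1, named by the same rule, had no call in any leukocyte class against tumour. Of all adaptors tested, 5 of 12 were higher in Ptprc+ dendritic-rule, 4 of 12 in T and 4 of 11 in macrophage barcodes. The number lower was 0, 0 and 1 in that order.

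**Figure D3:**
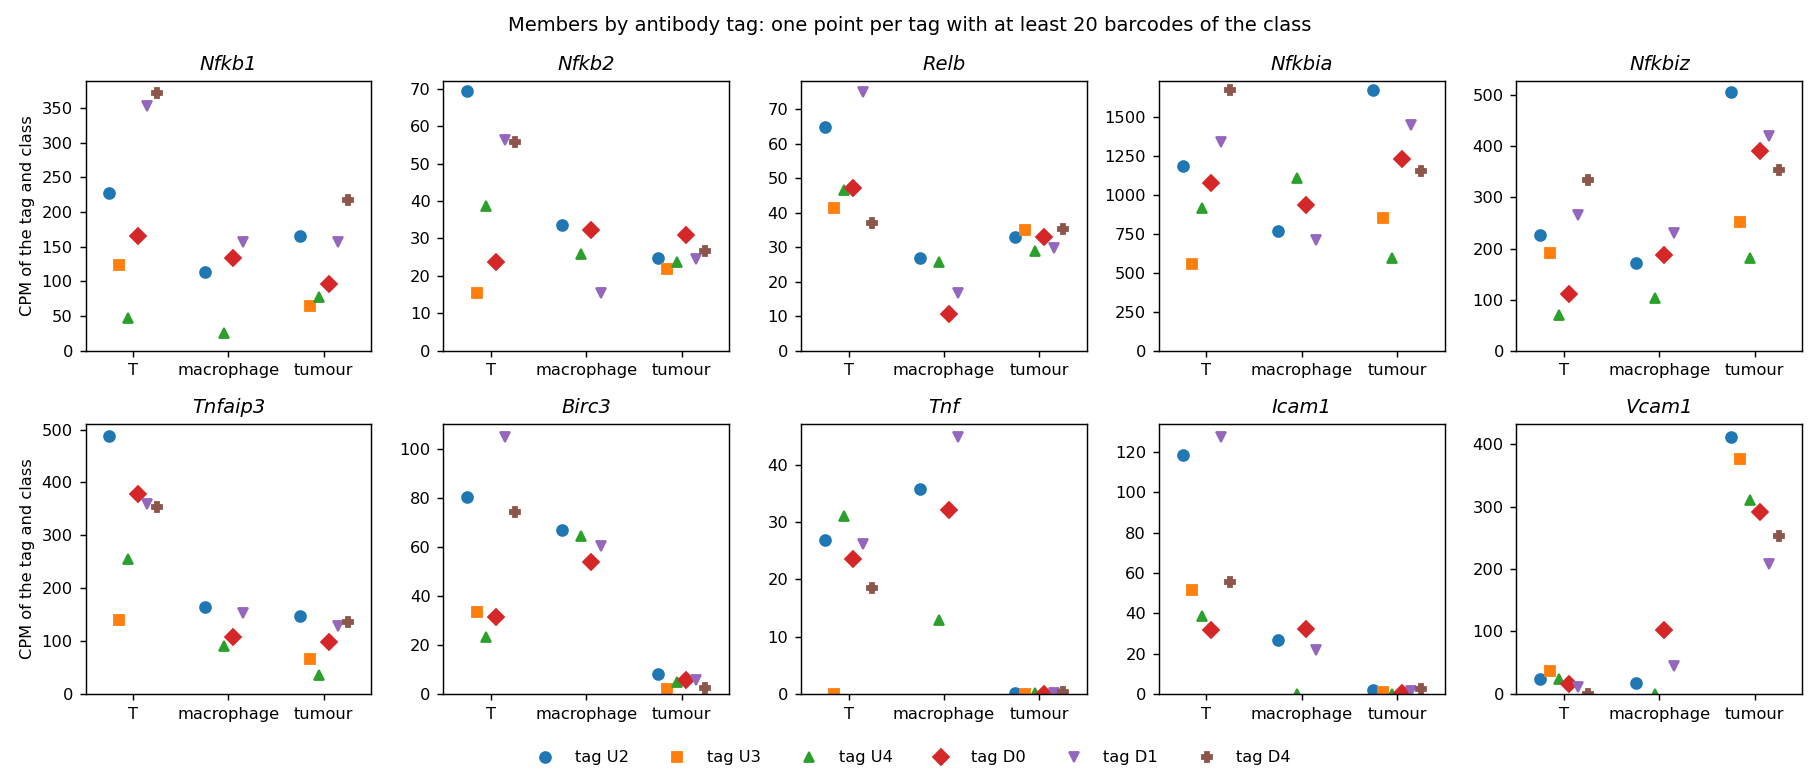
Level of each gene in CPM (vertical axes, each starting at 0) by tag within T, macrophage and tumour barcodes, 1 point for each tag with at least 20 barcodes of the class. Tumour points of Nfkbia run from 595 CPM in U4 to 1677 in U2, and every tumour point of Vcam1 lies above every T and macrophage point.

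Within tumour barcodes, the feedback genes varied more by tag than the slower-arm genes. The highest tag had 4.23 times the lowest level of Tnfaip3, 3.37 times for Nfkb1, 2.82 times for Nfkbia and 2.78 times for Nfkbiz, against 1.42 times for Nfkb2 and 1.21 times for Relb. U4 was lowest in Nfkbia (595 CPM), Nfkbiz (182 CPM) and Tnfaip3 (34.9 CPM), and U2 was highest in all 3. Tumour barcodes of U4 numbered 217 and those of U2 1667, with median depths of 24711 and 25742 UMIs. The 1851 tumour barcodes without a tag had 1041 CPM of Nfkbia and 85.5 CPM of Tnfaip3, below the 1464 and 128.5 CPM of the 3365 tagged ones. Whether these differences follow the treatment arm was not tested, since no arm is given.

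Across single tumour barcodes, Nfkbia, Nfkbiz and Tnfaip3 moved together with the chemokine gene Cxcl1. Each of 4937 tumour barcodes with at least 10000 UMIs was thinned to 10000, and Pearson's r of log counts was taken among the 4688 genes seen in at least 20% of them, 7 members included. Points share 1 library, and barcodes of 1 tag share a sample. Nfkbia and Nfkbiz had r of 0.631, Nfkbia and Tnfaip3 0.545, and Nfkbiz and Tnfaip3 0.518. Within single tags these 3 pairs stayed between 0.369 and 0.618. Nfkb1 had r of 0.353 to 0.374 with each of the 3, down to 0.023 with Nfkbia in 1 tag. Pairs that held Nfkb2 or Relb stayed at 0.069 or below, which is no finding at their low counts (means of 0.246 and 0.320 UMIs per thinned barcode).

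The gene most like Nfkbia was Cxcl1, with r of 0.840 over all barcodes and 0.712 to 0.840 within tags. Ifrd1 (0.662) and Ier3 (0.659) came next. Cxcl1 was also the gene most like Nfkbiz (0.656, followed by Nfkbia and Junb) and Tnfaip3 (0.581, followed by Nfkbia and Irf1). Nfkb1 was closest to Ereg (0.399), Ifrd1 (0.388) and Cxcl1 (0.385), and Vcam1 to Ccl7 (0.277), Ccl2 (0.270) and Iigp1 (0.256). For Nfkb2 and Relb the leading genes, Hmga2 and Clk1, reached no more than 0.0936 and 0.0820.

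**Figure D4:**
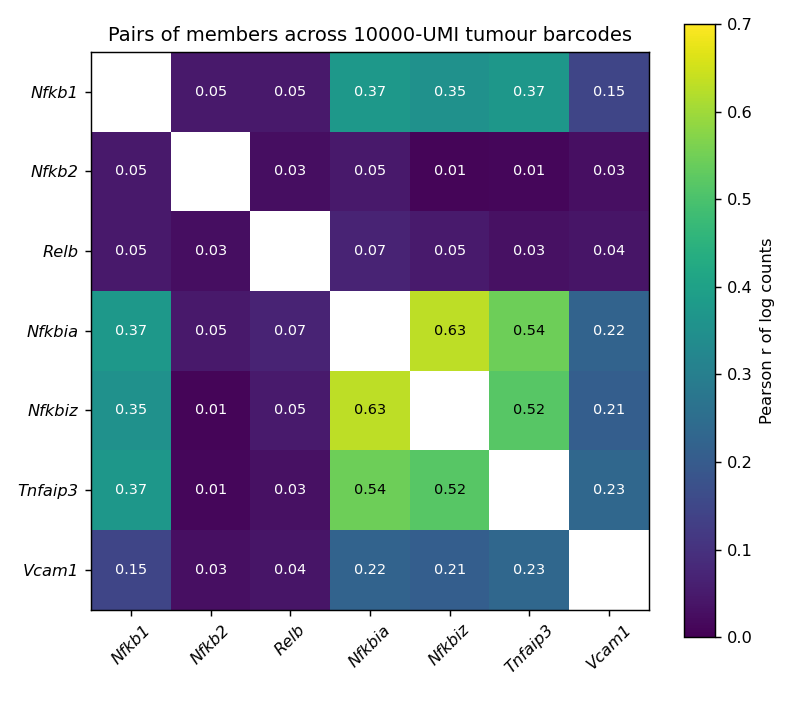
Pearson's r of log counts for each pair of 7 members over 4937 tumour barcodes thinned to 10000 UMIs, in colour and digits. The block of Nfkbia, Nfkbiz and Tnfaip3 holds the 3 highest values (0.631, 0.545 and 0.518), and the Nfkb2 and Relb rows stay at 0.069 or below.

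Tumour barcodes were ordered by Nfkbia into 4 groups, a split made after its values were seen, to give the size of this pattern. The lowest group held 0 to 3 Nfkbia UMIs per 10000 (1241 barcodes) and the highest 21 to 66 (1186 barcodes). From the lowest to the highest group, Tnfaip3 stood at 9.11, 66.7, 159 and 231 CPM, Nfkbiz at 109, 307, 504 and 667 CPM and Nfkb1 at 59.4, 108, 180 and 238 CPM. Birc3 stood at 2.42, 4.996, 7.09 and 9.36 CPM, and Vcam1 at 201, 267, 329 and 406 CPM. All 5 stepped up at each group and stood higher in the highest than in the lowest group in 6 of 6 tags.

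Highest against lowest Nfkbia group, Tnfaip3 was 25.4-fold higher (21.0 to 30.9), the top ratio of 4687 genes. Nfkbiz was 6.10-fold higher (5.76 to 6.47), Nfkb1 4.01-fold (3.70 to 4.36), Birc3 3.87-fold (2.57 to 6.005) and Vcam1 2.02-fold (1.92 to 2.12). Relb at 1.39-fold (1.20 to 1.61) and Nfkb2 at 1.35-fold (1.14 to 1.59) were not called. Of the 4687 genes 2.24% were higher and 0.0427% lower, and 4 of the 6 members other than Nfkbia in that set were called higher. The groups were cut on Nfkbia in the same barcodes that gave r. Genes correlated with Nfkbia therefore rise by construction, and these calls give the size of that pattern without adding support to it. Icam1 had 39 UMIs in the highest and 0 in the lowest group, and was higher in 3 of 6 tags. With the lowest group taken as 3 counts, Icam1 was 13.6-fold higher, and the exact interval started at 10.5-fold. Tnf had 5 and 0 UMIs.

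Other values moved with the split. Cxcl1 was 22.9-fold, Ccl2 9.64-fold and Ier3 4.37-fold higher in the highest Nfkbia group, and the tumour genes Sox9 (1.51-fold) and Krt8 (1.32-fold) were also above their level in the lowest group. Median depth before thinning was 26454 UMIs in the highest and 23538 in the lowest group, with median mitochondrial shares of 3.57% and 4.01%. Of the U2 barcodes 35.0% lay in the highest group and 13.2% in the lowest, while of the U4 barcodes 5.71% lay in the highest and 49.5% in the lowest. The part of depth, mitochondrial share and tag in the pattern was not tested, beyond the 6 tags that each showed it.

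**Figure D5:**
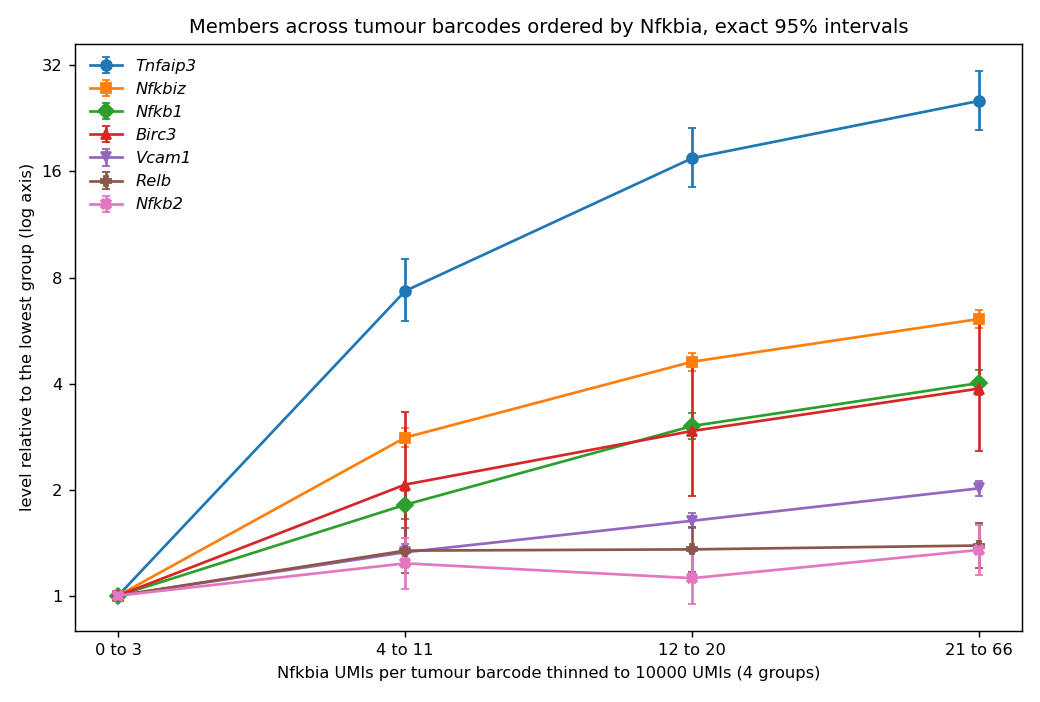
Level of 7 members relative to the lowest group (log axis) over 4 groups of tumour barcodes ordered by Nfkbia UMIs after thinning to 10000 (horizontal axis), with exact 95% intervals. Tnfaip3 climbs to 25.4-fold, Nfkbiz to 6.10-fold and Nfkb1 to 4.01-fold, while Relb and Nfkb2 end at 1.39-fold and 1.35-fold.

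Subsets of the leukocyte classes differed in the inhibitor genes. The 62 T barcodes with a UMI of Foxp3, the regulatory T cell factor, had 1682 CPM of Nfkbia (1477 to 1907) and 339 CPM of Nfkb1 (251 to 448). The 299 with Cd8a or Cd8b1 and no Foxp3 had 714 CPM of Nfkbia (649 to 783) and 158 CPM of Nfkb1 (129 to 192). The 207 macrophage barcodes with at least 3 UMIs of the arginase gene Arg1 had 163 CPM of Nfkbiz (139 to 189), while the 88 without Arg1 had 301 CPM (241 to 371), and Nfkbia intervals overlapped at 735 and 840 CPM. Tags were unequally spread over these subsets: D1 held 30 of the 62 Foxp3 and 34 of the 299 Cd8 barcodes, and U3 held 6 and 107. Within D1, Nfkbia stood at 1735 CPM with Foxp3 (1422 to 2097) and at 1133 CPM with Cd8 (892 to 1418), intervals that barely miss each other, and those of Nfkb1 overlapped (503 and 268 CPM). Within D1 the Nfkbiz intervals of the Arg1 subsets overlapped too, at 199.7 CPM with and 319 CPM without Arg1. The 4 T barcodes with at least 3 Col3a1 UMIs, a collagen gene, brought most of the 510.2 CPM of Col3a1 in that class, and without them the Nfkbiz ratio of T to tumour was 0.498.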

How the data were processed

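The deposited values are UMI counts per gene and antibody tag, made by the authors with Cell Ranger and mm10, per the submitters' processing notes, and the file headers name software version 3.1.0. Which annotation was counted against, no source used here states. Barcodes with under 500 genes (696) or at least 15% mitochondrial UMIs (267 more) were left out. Tags were called with HTODemux (Seurat 5.3.0, R 4.3.3, quantile 0.99, seed 42), which removed 865 multiplets; doublets within 1 tag or with an untagged cell remain. A leukocyte class needed under 3 Krt8 and Krt18 UMIs, barcodes meeting both the tumour and the macrophage or T rule or several leukocyte rules were set aside, and those meeting the tumour and dendritic rules counted as tumour. UMIs were summed per class (numpy 2.4.6, scipy 1.17.1), and genes averaging at least 5 CPM over the 2 classes were tested, the rule genes left out. Intervals are exact 95% Poisson or Clopper-Pearson intervals, and a count of 0 allows up to 3 counts. Tags entered with at least 20 barcodes. The script was tested on simulated counts. The named genes are the 10 members, the 3 genes with most UMIs of each pathway group and the 3 most correlated with each member seen in at least 20% of thinned tumour barcodes. Members and lists were chosen with earlier results of these data known, and the Nfkbia groups, the T against macrophage and Ptprc+ contrasts, the values without Dcn barcodes and within D1, and the 5 CPM minimum after seeing values.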

Additional observations from a re-analysis of the deposited data

How the results depend on the processing

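No paired analysis was possible because no label ties a tag to an arm or to another tag; classes were compared within tags by counts of tags only. Of the alternative settings of 39 member ratios, 595 values kept their call or had none in either setting. Those without a call could lie on either side of 1. The call was lost in 21 and gained in 21, and 9 with a call in either setting changed direction. The last were Icam1, dendritic-rule against macrophage, at 1.30 (mean of barcode CPM), 3.49 (barcodes with Ptprc), 3.89 (Ptprc, no B markers) and 2.30 (no Krt8, Krt18 or Sox9 UMI); Vcam1 against tumour at 0.489 (Ptprc) and 0.142 (no Krt8, Krt18 or Sox9 UMI); Birc3 against macrophage at 1.02 (Ptprc, no B markers); and Nfkbiz at 0.397 against tumour and 0.807 against macrophage (no Krt8, Krt18 or Sox9 UMI). The cause was not tested.

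With class rules as written, members lower were 0 in macrophage and 0 in T, members higher 2 in T, 0 in dendritic against tumour and 0 against macrophage, and the pathway list gave 12 higher and 2 lower in macrophage, 1 lower in T, and 1 higher in dendritic against tumour and 1 against macrophage. At least 1000 genes gave 1 member higher in dendritic against tumour, and doubled thresholds 13 pathway genes higher against macrophage. The mean of barcode CPM gave 1 member lower in macrophage, 20 pathway genes higher in dendritic against tumour and 11 lower against macrophage. Barcodes with 1 tag gave 2 members lower in T. A ratio of 1.5 gave 4 lower in macrophage and 2 in T. Dendritic-rule barcodes with Ptprc gave, against tumour, 1 member lower and 24 pathway genes higher and 5 lower, and against macrophage 1 member lower and 15 pathway genes higher and 7 lower.

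Settings added after seeing the data gave the following. Ptprc without B markers gave 22 pathway genes higher and 4 lower against tumour, and 1 member lower, 13 pathway genes higher and 5 lower against macrophage. No Krt8, Krt18 or Sox9 UMI gave 2 members lower, 20 pathway genes higher and 7 lower in dendritic against tumour, and 1 member higher, 1 lower and 8 pathway genes lower against macrophage. T barcodes with fewer than 3 Col3a1 UMIs gave 2 members lower. Leaving out 1 tag at a time, members lower ran from 1 to 2 in macrophage and 1 to 2 in T, members higher from 1 to 2 in dendritic against tumour, and the pathway list from 4 to 7 lower in macrophage and 6 to 11 higher in dendritic against tumour. In the 39 ratios of the T against macrophage and Ptprc+ dendritic-rule contrasts, leaving out 1 tag lost 9 calls and gained 10. It turned the direction of 1 called ratio (Vcam1, Ptprc+ dendritic-rule against macrophage, 0.648 without U3 and up to 6.07 without D1). The other 214 values kept their call or had none in either setting, where they could lie on either side of 1. Thin classes limit the rest: 37 Ptprc+ dendritic-rule barcodes hold 174455 UMIs, and tags D4 and U3 have under 20 macrophage barcodes.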

Other observations

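Natural killer barcodes (at least 2 UMIs of Ncr1, Klrb1c and Klre1 and no Cd3 chain, 120 in number) lay between T and macrophage barcodes in Tnfaip3 and Icam1 and below both in Birc3 and Tnf. They had 207 CPM of Tnfaip3 (175 to 244), 59.9 CPM of Icam1 (43.0 to 81.2), 20.4 CPM of Birc3 (11.2 to 34.3) and 7.30 CPM of Tnf (5 UMIs). Their Vcam1 level of 121 CPM stood beside a Sox9 level of 31.1% of that in tumour barcodes. The 26 endothelial barcodes, in which Icam1 was high, had 39.6 CPM of Tnfaip3 (6 UMIs) and 66.0 CPM of Nfkb1 (10 UMIs). They had 79.3 CPM of Ltbr, a receptor of the slower arm, and 145 CPM of Tnfrsf1a, a Tnf receptor.

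Among tumour barcodes ordered by Nfkbia, several genes outside the named set, chosen after their values were seen, had ratios of the highest to the lowest group close behind Tnfaip3 and Cxcl1. The cytokine gene Lif was at 133 and 8.94 CPM (14.9-fold), the immediate early gene Nr4a1 at 219 and 19.5 CPM (11.2-fold) and the growth factor gene Ereg at 839 and 77.2 CPM (10.9-fold). Irf1, an interferon response factor, was at 459 and 43.4 CPM (10.6-fold), the monocyte chemokine gene Ccl7 at 1061 and 116 CPM (9.11-fold), and Zfp36, which destabilises cytokine transcripts, at 485 and 64.4 CPM (7.54-fold). The median log2 ratio of all 4687 genes in this contrast was -0.06.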
